A study of Mus musculus with 24 samples.

Results

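Solute carriers are the large class of membrane proteins that move nutrients, ions, metals and drugs across cell membranes, and their genes carry the symbol Slc with a family number. The genes described here are the 172 of 19209 named genes in the table of wild-type mouse livers given vehicle or pregnenolone 16α-carbonitrile (PCN) whose symbol starts with Slc and a digit and whose deposited mean normalised count (baseMean, over the 8 libraries of both groups) was at least 50. Of 268 such symbols in the table, 90 fell under that minimum, and Slc10a1, Slc10a2, Slc1a2, Slc2a2, Slc25a20 and Slc25a25 were left out by name. The minimum was set on a level over both groups and not on a change. Just inside it stood Slc39a10 at a baseMean of 54.3, Slc7a8 at 54.8 and Slc16a13 at 57.6, and just outside it Slc41a3 at 47.4 and Slc25a27 and Slc1a4, both at 44.7. The members belonged to 44 families, of which the mitochondrial Slc25a family was represented by 26 genes. Another 5 members are named after a carrier without encoding one, such as Slc9a3r1, a scaffold protein, and were described apart.

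In liver, carriers of the plasma membrane take up amino acids, fatty acids, drugs and vitamins from blood and release lactate, ketone bodies and glucose, while carriers of the inner mitochondrial membrane, endoplasmic reticulum, Golgi and lysosome connect the compartments in which these substances are used. Carriers are classed by sequence, so a family number tells the likely substrate class but not always the substrate. PCN is an agonist of mouse pregnane X receptor (PXR, encoded by Nr1i2), a nuclear receptor that turns on genes of drug metabolism. Atorvastatin and pravastatin are statins, inhibitors of HMG-CoA reductase in the cholesterol synthesis pathway.

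Liver RNA of 24 male mice was sequenced as total RNA, with 4 livers in each of 6 groups. Wild-type (WT) mice were C57BL/6N, 19 to 20 weeks old, on standard chow, and received distilled water as vehicle, PCN at 100 mg/kg, atorvastatin at 10 mg/kg or pravastatin at 10 mg/kg. PXR knockout (PXRKO) mice, males of 20 weeks on the same C57BL/6 background, received distilled water or atorvastatin at 10 mg/kg. All were dosed by oral gavage for 4 days and fasted for 12 h before death, so every group was measured in the fasted state. The labels do not describe the knockout allele. WT and PXRKO mice were treated in 2 separate experiments, and a difference of genotype cannot be told apart from a difference of experiment.

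Depth in named genes was 6.25 to 23.4 M counts (M, 1e6) in vehicle and 7.77 to 15.5 M in PCN livers, and the other groups were sequenced to size factors of 0.634 to 1.82, where 1 stands for 11.7 M counts. Counts of Nr1i2 itself were 1069 to 1380.0 in WT vehicle and 541 to 659 in PXRKO vehicle livers; which part of the gene was deleted is not known here, so a count over the whole gene does not check the deletion. Hepatocyte markers were abundant, with 7 of 7 present and a summed normalised count of 865400 to 994100 in vehicle and 806400 to 885800 in PCN libraries. All 10 Kupffer cell (liver macrophage) markers were present, and their sum was 2848 to 5086 in vehicle and 1677 to 3802 in PCN libraries. Of other cell types, not all markers entered the test with PCN described below. Tested were 8 of 8 endothelial, 8 of 8 stellate, 3 of 6 cholangiocyte, 2 of 6 erythroid, 3 of 6 lymphocyte and 1 of 5 adipocyte markers. Among these 1 passed (Lrat, a stellate cell gene, higher), beside 3.56% of all tested genes. Exocrine pancreas markers were not tested (0 of 6) and summed to at most 2.26 counts. In bulk liver, fewer cells of a type and less RNA per cell cannot be told apart.

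Per kilobase of exon, the fatty acid carriers Slc27a2 and Slc27a5 stood highest among the members in vehicle livers. The top genes named here were singled out after their levels were seen. Slc27a2, a fatty acid carrier that also activates very long chain fatty acids, had a level of 7662 ± 283 normalised counts per kb (SD, n = 4), and Slc27a5, which activates bile acids and fatty acids, 4410.2 ± 355. Next on the same per-length scale came Slc38a3, a glutamine carrier, at 2749 ± 240.1 and Slc25a5, an ADP/ATP carrier, at 2383 ± 172. Slc38a3 and Slc25a5 lay within their SDs of each other, while the other neighbours in this order did not. None of these 4 passed edgeR's test with PCN described below, while the authors' deposited table gave Slc38a3 an adjusted p of 0.0202, at 1.24-fold the vehicle mean and without overlap. Over all members the median coefficient of variation between vehicle livers was 10.9%, against 9.69% over all tested genes of at least the same baseMean.

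With PCN, 12 of the 172 members passed the test, and the rest of the class did not. Among those 12, the sodium-calcium exchanger gene Slc8a1 fell most, 3.58-fold, and the vitamin carrier gene Slc5a6 rose most, 2.24-fold. Higher with PCN were 5 members (Slc5a6, Slc46a3, Slc16a12, Slc6a9 and Slc9a3r1) and lower were 7 (Slc8a1, Slc45a3, Slc16a1, Slc30a10, Slc35b1, Slc4a4 and Slc38a2). The test was edgeR's quasi-likelihood F test on every gene of the table, with p-values adjusted over 12855 tested genes and a threshold of 0.05. All 172 members passed its filter on low counts.

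The members' share of calls was 6.98%, beside 3.56% of all tested genes (1.91% higher and 1.65% lower) and 4.47% of the tested genes with a baseMean of at least 50. In 28 members, 16.3%, the 4 vehicle and 4 PCN livers did not overlap, beside 13.1% of the genes with that baseMean. The changes were small in most members: the fitted log2 change was within 0.5 of 0 in 154 and beyond 1 in 3 of them. Its median was 0.04 over the members, −0.01 over all tested genes and −0.02 over tested genes of at least the same baseMean. DESeq2 called 19 members, the same 19 as in the authors' deposited table, and all 12 were among them. The background there was 5.57% over all tested genes, without the baseMean minimum. The 7 others were Slc16a7, Slc26a2, Slc38a3, Slc41a1 and Slc43a1, higher with PCN, and Slc35e2 and Slc39a4, lower. Leaving out 1 library at a time, between 5 and 15 members passed: 7 without vehicle library 1, 7 without vehicle library 3, 6 without PCN library 2 and 5 without PCN library 4, libraries being numbered in column order.

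**Figure D1:**
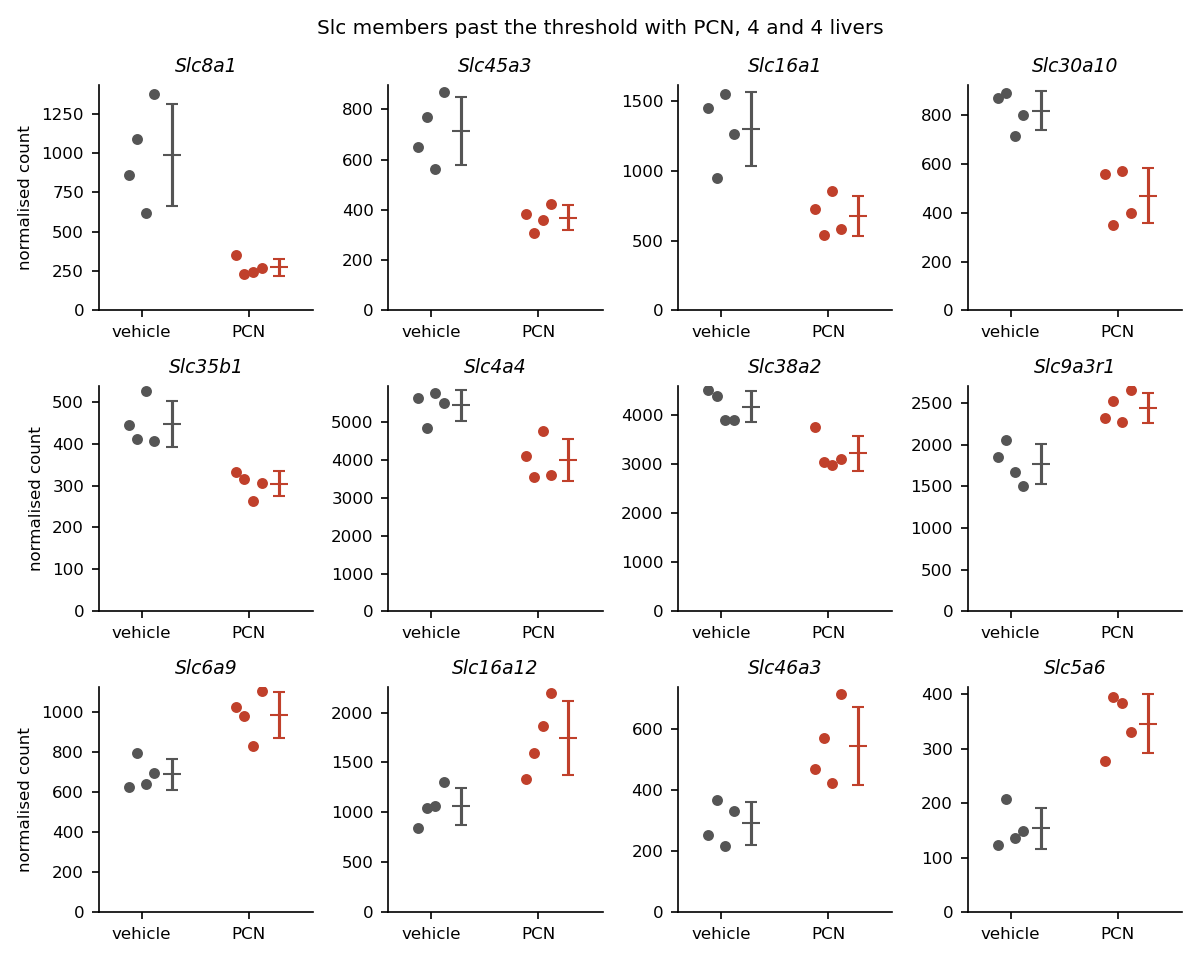
Normalised counts (y axis, from 0) of the 12 members past the threshold, in each of 4 vehicle (grey) and 4 PCN (red) livers; points are livers, and the bar beside them is the mean with 1 SD. In every panel all PCN livers lie on the same side of all vehicle livers, from Slc8a1, which fell 3.58-fold, to Slc5a6, which rose 2.24-fold.

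**Figure D2:**
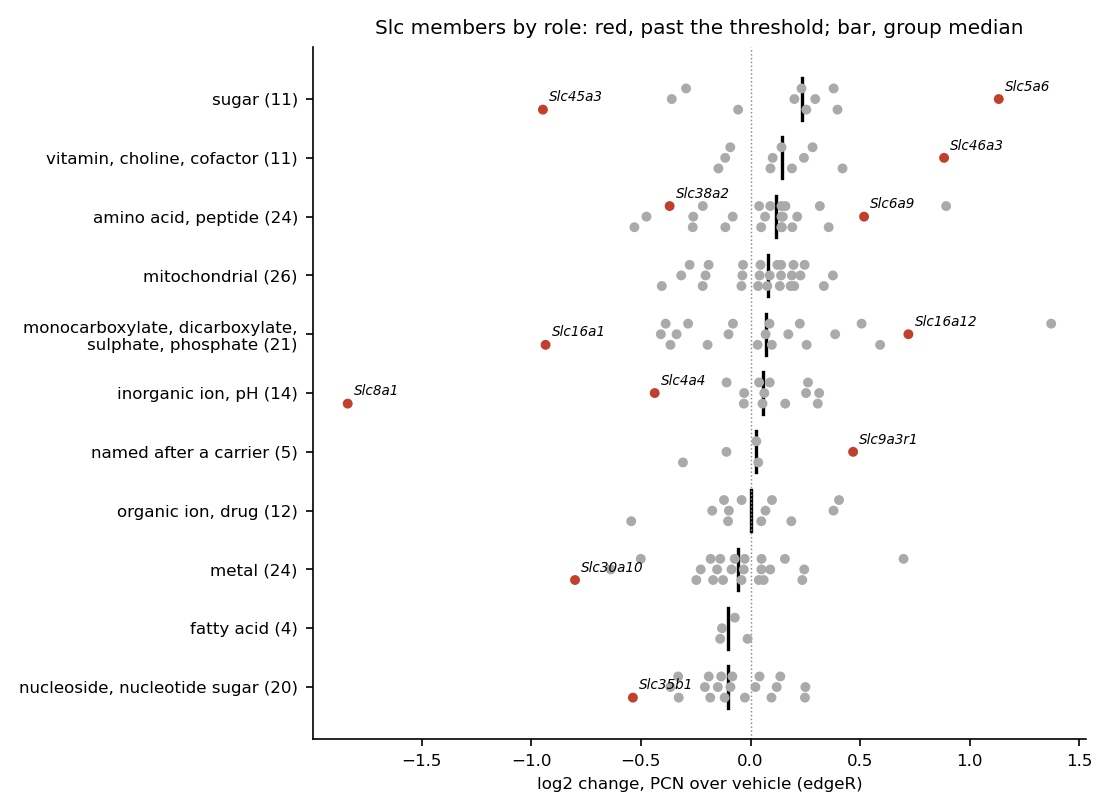
Fitted log2 change with PCN (x axis) of all 172 members, 1 point each, by role (number of members in brackets); red points passed the threshold and black bars are group medians. Group medians lie between −0.10 and 0.23, and some members that did not pass lie further from 0 than called ones, Slc16a5 at 1.37 the furthest to the right.

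Monocarboxylate, dicarboxylate, sulphate and phosphate carriers numbered 21, with 1 member higher (Slc16a12), 1 lower (Slc16a1) and 19 not past the threshold, at a median log2 change of 0.07. Members of the Slc16a family moved in opposite directions within this group. Slc16a1 (chr3:104638668-104658462, plus strand, GRCm38) encodes MCT1, which carries lactate, pyruvate and ketone bodies with a proton. Its normalised counts were 1450.0, 947, 1552 and 1264 in vehicle and 729.6, 538, 859 and 586 in PCN livers, so that the highest PCN liver lay below the lowest vehicle liver. The fall was 1.92-fold (log2 change -0.93 ± 0.17 SE, adjusted p = 0.0114), and it passed in all 8 fits that left out a library, with adjusted p up to 0.0415.

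Slc16a12 (chr19:34668403-34747289, minus strand), which encodes a creatine carrier, went the other way. It had 848, 1041, 1059.7 and 1300.2 counts in vehicle and 1333, 1597, 1861 and 2193 in PCN livers, with the groups just apart. That rise of 1.64-fold (log2 change 0.72 ± 0.15 SE, adjusted p = 0.0254) was sensitive to single libraries: it passed only without vehicle library 4 or PCN library 1, with adjusted p of up to 0.0735 in the other fits. Slc16a5, which encodes MCT6, a carrier of drugs such as bumetanide, had the largest fitted rise of any member but did not pass. Its counts spread from 48.1 to 398 among vehicle and from 255 to 645 among PCN livers (log2 change 1.37 ± 0.52 SE, adjusted p = 0.187), and the groups overlapped. Slc16a7, which encodes MCT2, a high-affinity pyruvate and lactate carrier, had 1194 to 1814 counts in vehicle and 1708 to 2949 in PCN livers; edgeR gave an adjusted p of 0.0673 and the authors' deposited table one of 0.0133.

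The promoters of Slc16a1, Slc16a12 and Slc5a6 are shown because these genes were called with PCN and with atorvastatin in WT livers and hold at least 1 of the searched motifs in a RefSeq promoter window whose start lies within 845 bases of the deposited gene start (GRCm38.p6, 250 bases before to 50 after the start, 5′ to 3′ on the gene's strand). Capitals mark the motif matches, and the windows were picked after the matches were seen.
Slc16a1 (chr3:104638414-104638713, plus strand): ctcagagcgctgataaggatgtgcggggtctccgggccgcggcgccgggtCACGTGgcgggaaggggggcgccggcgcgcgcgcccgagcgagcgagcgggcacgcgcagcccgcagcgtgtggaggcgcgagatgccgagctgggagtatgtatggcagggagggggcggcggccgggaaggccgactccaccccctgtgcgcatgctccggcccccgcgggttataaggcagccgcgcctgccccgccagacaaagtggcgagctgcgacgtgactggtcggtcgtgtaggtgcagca
Slc16a12 (chr19:34747279-34747578, minus strand): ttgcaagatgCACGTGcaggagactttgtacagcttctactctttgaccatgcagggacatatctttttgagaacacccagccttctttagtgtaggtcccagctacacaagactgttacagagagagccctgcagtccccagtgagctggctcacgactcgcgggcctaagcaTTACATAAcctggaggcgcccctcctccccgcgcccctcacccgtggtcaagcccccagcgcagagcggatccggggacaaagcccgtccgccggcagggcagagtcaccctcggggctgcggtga
Slc5a6 (chr5:31048030-31048329, minus strand): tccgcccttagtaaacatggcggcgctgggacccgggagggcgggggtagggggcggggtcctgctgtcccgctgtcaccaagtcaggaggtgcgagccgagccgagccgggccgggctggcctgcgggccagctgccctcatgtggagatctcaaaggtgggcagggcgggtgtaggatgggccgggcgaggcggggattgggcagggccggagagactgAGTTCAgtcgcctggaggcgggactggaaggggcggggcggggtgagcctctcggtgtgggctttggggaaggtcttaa
The searched motifs, on both strands, were the E-box CACGTG, the D-box TTATGTAA or TTACATAA, the nuclear receptor motifs AGGTCA and AGTTCA, and the amino acid response element ATTGCATCA or TGATGCAAT. None of these overlaps another in the windows shown. Slc16a1 held an E-box 200 bases before the start, and Slc16a12 an E-box 240 and a D-box 76 bases before it. Slc5a6 has 2 windows, and the one shown, whose start lies 845 bases inside the deposited gene, held AGTTCA 29 bases before that start. The other, which starts 362 bases inside the gene, held no searched motif. Slc45a3 and Slc4a4 were called in both comparisons too and hold AGGTCA 115 and 121 bases before a start. These starts lie further inside the deposited gene, at 7642 and 141148 bases, and their windows are not shown. An E-box was in the windows of 21.3% of the 127 members with an entry and of 8.09% of all genes in the table. The D-box was in those of 1.57% and 1.11%, AGTTCA in 17.3% and 15.7%, AGGTCA in 19.7% and 18.1%, and the amino acid response element in 0.787% and 0.222%. Among members called with PCN, an E-box was in 1 of 5 higher (20.0%) and 1 of 7 lower (14.3%), no larger shares than the 21.3% of the members. The D-box and AGTTCA were each in 1 of the 5 and 0 of the 7, and AGGTCA in 0 of the 5 and 2 of the 7. These are matches of letters and were not tested as binding sites.

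Inorganic ion and pH carriers numbered 14, with 2 lower, none higher and a median log2 change of 0.06. Slc8a1 (chr17:81373105-81738377, minus strand) encodes the sodium-calcium exchanger NCX1, which moves calcium out of cells in exchange for sodium. Vehicle livers had 859, 1089.9, 617 and 1379 counts and PCN livers 354, 234, 244 and 267. The lowest vehicle liver was above the highest PCN liver although the vehicle livers themselves spread widely. It fell 3.58-fold (log2 change -1.84 ± 0.22 SE, adjusted p = 0.00129), and the call held in all 8 fits without a library, with adjusted p up to 0.00893.

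Slc4a4 (chr5:88886818-89239653, plus strand), the sodium bicarbonate cotransporter NBCe1, was the more abundant gene of the pair on the count scale. It had 5635, 4861, 5789 and 5502 counts in vehicle and 4120.3, 3566, 4758 and 3598 in PCN livers, groups separated by a narrow gap. The fall of 1.36-fold (log2 change -0.44 ± 0.10 SE, adjusted p = 0.0398) passed only in the fits without vehicle library 2 or PCN library 3, and the adjusted p reached 0.117 without PCN library 2. The other 12 genes of the group, among them potassium-chloride cotransporters and sodium-proton exchangers, did not pass.

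Metal carriers numbered 24, with 1 lower, none higher and a median log2 change of −0.06. Slc30a10 (chr1:185454848-185468762, plus strand) encodes the manganese exporter through which liver cells release manganese into bile. Counts were 872, 889.9, 715 and 802 in vehicle and 561, 351, 574 and 398 in PCN livers, with all PCN livers below all vehicle livers. It fell 1.74-fold (log2 change -0.80 ± 0.15 SE, adjusted p = 0.0124) and passed in all 8 fits without a library, the adjusted p reaching 0.0422 without PCN library 4. Slc39a4, a zinc importer, had 245 to 336 counts in vehicle and 171 to 232 in PCN livers; the groups did not overlap, but the adjusted p was 0.0581 with edgeR and 0.0176 in the authors' deposited table. Slc41a1, a magnesium carrier, ranged over 60.8 to 93.6 in vehicle and 88 to 156 in PCN livers (log2 change 0.70 ± 0.19 SE, adjusted p = 0.0673 with edgeR), and the authors' deposited table gave it 0.0219. Slc11a1, which moves iron and manganese out of macrophage phagosomes, had 145, 81.7, 127 and 66.5 counts in vehicle and 84.9, 83.1, 28.8 and 61.8 in PCN livers (log2 change -0.64 ± 0.31 SE, adjusted p = 0.319). Library by library, the summed Kupffer cell markers were 5086, 2920.0, 3889 and 2848 in vehicle and 3116, 3802, 1677 and 2155 in PCN livers, and PCN library 3 was lowest in both. The part of macrophage RNA in the Slc11a1 values was not tested.

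Sugar carriers by family number were 11, with 1 higher, 1 lower and the highest median log2 change of the role groups, 0.23. The members that passed are not carriers of blood glucose. Slc5a6 (chr5:31036036-31048924, minus strand) encodes the sodium-dependent multivitamin transporter, which takes up biotin, pantothenate and lipoate. It had 123, 208, 136 and 149 counts in vehicle and 277, 394, 382 and 329.9 in PCN livers, with a wide gap between the groups. The rise was 2.24-fold (log2 change 1.13 ± 0.17 SE, adjusted p = 0.00428) and passed in all 8 fits without a library, with adjusted p up to 0.0196.

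Slc45a3 (chr1:131962967-131982969, plus strand), also called prostein, had 649, 769, 562 and 871 counts in vehicle and 384, 307, 361 and 425 in PCN livers. It fell 1.93-fold (log2 change -0.95 ± 0.14 SE, adjusted p = 0.00357), and this too passed in all 8 fits, with adjusted p up to 0.0174. The 9 others in the group included the glucose carrier Slc2a1, at 105 to 180.0 counts in vehicle and 176 to 214 in PCN livers, and the urate carrier Slc2a9, at 736 to 822 and 723 to 1117; for both the groups overlapped and the adjusted p was 0.195 and 0.217.

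Among 11 carriers of vitamins, choline and other cofactors, 1 rose and none fell, at a median log2 change of 0.14. Slc46a3 (chr5:147878437-147894815, minus strand), a carrier of the lysosomal membrane in the folate carrier family, had 251, 367, 216 and 331 counts in vehicle and 468, 568, 423 and 712 in PCN livers. All PCN livers were higher than all vehicle livers, a rise of 1.86-fold (log2 change 0.88 ± 0.18 SE, adjusted p = 0.0222). The call was lost without vehicle library 1, vehicle library 3, PCN library 2 or PCN library 4, with adjusted p up to 0.0705. Slc44a3, of the choline carrier family, was the next in size and did not pass, with 48.1 to 91.1 counts in vehicle and 72.5 to 124 in PCN livers (log2 change 0.42 ± 0.22 SE, adjusted p = 0.352).

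Amino acid and peptide carriers numbered 24, with 1 higher, 1 lower and a median log2 change of 0.12. Slc6a9 (chr4:117834506-117875198, plus strand), the glycine carrier GlyT1, had 625, 795, 639.5 and 694 counts in vehicle and 1023, 981, 829 and 1102 in PCN livers. The lowest PCN liver stood just above the highest vehicle liver, and the rise was 1.43-fold (log2 change 0.52 ± 0.10 SE, adjusted p = 0.018). Its adjusted p rose to as much as 0.0597 without vehicle library 1 or 3 or PCN library 2 or 4.

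Slc38a2 (chr15:96687392-96699730, minus strand), the SNAT2 carrier of small neutral amino acids that is known to be raised by amino acid shortage, moved down. Counts were 4512, 4372, 3892 and 3892 in vehicle and 3740.2, 3047, 2985 and 3089.9 in PCN livers, a fall of 1.3-fold (log2 change -0.37 ± 0.09 SE, adjusted p = 0.0491). PCN library 1 stood above the other PCN livers and close to the lowest vehicle liver. This was the least stable of the 12 calls: of the fits that left out a library it passed only in that without PCN library 1, and the adjusted p reached 0.138 without vehicle library 1. Slc43a1, a carrier of branched-chain amino acids, did not pass with edgeR, against 0.00799 in the authors' deposited table, at 38.7 to 101 counts in vehicle and 94.1 to 145 in PCN livers (log2 change 0.89 ± 0.23 SE, adjusted p = 0.0571), nor did Slc7a8, another large neutral amino acid carrier, at 48 to 86.3 and 19.7 to 59.9 (log2 change -0.53 ± 0.31 SE, adjusted p = 0.391).

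Nucleoside and nucleotide sugar carriers numbered 20, with 1 lower, none higher and a median log2 change of −0.10. Slc35b1 (chr11:95384692-95391776, plus strand), which brings ATP into the endoplasmic reticulum in exchange for ADP, had 445, 411, 525 and 407 counts in vehicle and 332, 316, 263 and 306 in PCN livers. Without overlap between the groups, it fell 1.47-fold (log2 change -0.54 ± 0.11 SE, adjusted p = 0.017), and the call was lost only without PCN library 4, at an adjusted p of 0.0538. Slc35e3, whose substrate is not settled, had 436 to 521 counts in vehicle and 298 to 433 in PCN livers and did not pass (log2 change -0.37 ± 0.11 SE, adjusted p = 0.094).

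No member passed in 3 role groups, with edgeR or with DESeq2. Unadjusted edgeR p-values were under 0.05 for 7 of 26 mitochondrial, 0 of 4 fatty acid and 1 of 12 organic ion and drug carriers. Over all 172 members this held for 47. The share over all tested genes was not counted, so these numbers do not set the members or a role group apart. The mitochondrial carriers were the largest group, 26 genes, and their log2 changes lay between −0.40 and 0.38 with a median of 0.08. The lowest was that of Slc25a30, whose vehicle livers alone spread over 562 to 2431 counts, and the highest that of Slc25a40, a mitochondrial glutathione carrier, at 86.6 to 100.1 in vehicle and 104 to 139.6 in PCN livers (log2 change 0.38 ± 0.14 SE, adjusted p = 0.168). The 4 fatty acid carriers lay within −0.14 to −0.01, Slc27a2 at 27990.0 to 30333 counts in vehicle and 23985 to 28259 in PCN livers, and Slc27a4 with a fitted log2 change of −0.13. The 12 organic ion and drug carriers had a median log2 change of 0.00. At their ends stood Slc22a28, a member of a mouse cluster of closely similar genes among which reads may be misassigned, at log2 change -0.54 ± 0.32 SE, adjusted p = 0.397, and Slc22a4, the ergothioneine carrier, at log2 change 0.40 ± 0.16 SE, adjusted p = 0.215.

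Of the 5 genes named after a carrier, Slc9a3r1 (chr11:115163341-115181181, plus strand) rose. It encodes NHERF1, a scaffold that holds carriers and other proteins at the apical membrane. Livers given vehicle had 1854, 2058, 1672 and 1503 counts and those given PCN 2319, 2529.8, 2270.4 and 2654, a rise of 1.38-fold (log2 change 0.47 ± 0.10 SE, adjusted p = 0.0249). No liver of either group crossed into the other, but the call was lost without vehicle library 1 or 3 or PCN library 2 or 4, with adjusted p up to 0.0809. The pseudogene Slc2a4rg-ps had 181 to 195 counts in vehicle and 132 to 170.3 in PCN livers (log2 change -0.31 ± 0.11 SE, adjusted p = 0.158).

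Carriers and carrier partners without an Slc number were listed beside the members: 24 of 33 were tested, 2 were higher and 1 lower with PCN, at a median log2 change of −0.05. Aqp11, an intracellular aquaporin, had 504, 529, 372 and 453 counts in vehicle and 708, 805, 642 and 648 in PCN livers (log2 change 0.59 ± 0.11 SE, adjusted p = 0.0154). Trpm7, a magnesium-permeable channel with a kinase domain, had 1593, 1433, 1467 and 1539.9 and 1819, 1879, 2070.1 and 1873 (log2 change 0.35 ± 0.07 SE, adjusted p = 0.0222). Cnnm4, a magnesium transport mediator, had 119, 109.9, 112 and 109 and 89, 68.1, 69.8 and 70.8 (log2 change -0.58 ± 0.14 SE, adjusted p = 0.0407). All 3 were without overlap between the groups. Basigin (Bsg), the chaperone that brings MCT1 to the cell surface, had a fitted log2 change of −0.03 (adjusted p = 0.816) and was named for that link after its values were seen.

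For the other groups the deposited tables list only genes selected on the authors' own results, so the calls below are the authors' (DESeq2, adjusted p under 0.05), described with the counts of the listed members. Counts of 59 members are listed for WT atorvastatin, 13 for WT pravastatin, 15 for PXRKO vehicle and 44 for PXRKO atorvastatin, and 102 members are listed for vehicle and PCN alone. Levels across groups were set on 1 scale over separately normalised tables. The vehicle livers are the same animals in the PCN, atorvastatin and pravastatin comparisons, and PCN and the statins were given at different doses, so their values are set side by side without a comparison.

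With atorvastatin in WT livers, 34 members were called in the authors' deposited table, 21 higher and 13 lower, 19.8% of the members beside a background of 9.57%. This background is over all tested genes, without the members' baseMean minimum. With PCN and edgeR, that minimum moved the background from 3.56% to 4.47%. A matched share could not be counted here because only selected genes are listed, so the 2 shares are over unlike sets. In 25 of the 34 the vehicle and atorvastatin livers did not overlap. The share without overlap over all called genes was not counted, so this number does not set the members apart. By number, most calls were in the mitochondrial carriers, the largest role group, with 4 higher and 2 lower of 26. The monocarboxylate, dicarboxylate, sulphate and phosphate carriers followed, with 4 higher and 1 lower of 21. Sugar carriers had 3 higher and 1 lower of 11, and vitamin, choline and cofactor carriers 3 higher and none lower of 11. The groups differ in size, so this order of counts is not an order of shares.

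Among monocarboxylate carriers, Slc16a1 had 559.8, 564, 588 and 609 counts in the atorvastatin livers, a narrow set below every vehicle liver. It was 2.25-fold lower than in vehicle livers by the ratio of means, and the authors' deposited table gave it an adjusted p of 5.95e-14. Slc16a12 had 2125, 2004, 2458 and 2502 counts, 2.14-fold higher and above every vehicle liver (adjusted p 2.99e-14 in the authors' deposited table). Slc16a7 had 2504, 2169.8, 2507 and 3135, 1.74-fold higher and likewise without overlap (1.64e-06 in the authors' deposited table). The phosphate carrier Slc20a1 was 1.57-fold higher with overlapping groups (0.0178 in the authors' deposited table).

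Carriers of vitamins and choline followed. Slc46a3 had 535, 592, 824 and 706 counts in atorvastatin livers, 2.28-fold the vehicle mean (adjusted p 1.23e-08 in the authors' deposited table). Slc5a6 had 363, 341, 334 and 224, 2.05-fold higher (1.15e-05 in the authors' deposited table), and its library 4 came close to the highest vehicle liver. Slc44a3 was 1.64-fold higher, from 73.1 ± 18 to 119.7 ± 10.7 (SD, n = 4 each; 0.00508 in the authors' deposited table).

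Of metal carriers 1 was higher and 2 lower, and of ion and pH carriers 1 was higher and 2 lower. Slc30a10 had 384, 392, 379.8 and 328 counts, 2.21-fold lower than vehicle livers, with the smallest adjusted p of the members, 9.27e-27 in the authors' deposited table. Slc39a4 had 117, 218, 217 and 94.8, 1.81-fold lower (0.00841 in the authors' deposited table), all below the vehicle livers. Slc4a4 had 3341, 3975, 4136 and 4027, 1.41-fold lower (4.81e-06 in the authors' deposited table). Slc8a1 had 159.6, 214, 571 and 186 counts, so that library 3 stood far above the other 3 but still below the lowest vehicle liver. The ratio of means was 3.49-fold lower (0.00664 in the authors' deposited table), and without library 3 the atorvastatin mean was 0.189 of the vehicle mean in place of 0.286.

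Amino acid, sugar and endoplasmic reticulum carriers held further calls. Slc38a3 had 19738, 20862, 18782 and 19058 counts with atorvastatin, 1.35-fold higher without overlap (3.37e-06 in the authors' deposited table). Slc6a9 was 1.42-fold higher at 1088, 978, 845 and 999.8 counts (0.000228 in the authors' deposited table), and Slc2a1 1.52-fold higher with overlapping groups (0.0296 in the authors' deposited table). Slc35b1 was 1.47-fold lower at 294, 313, 265 and 340.4 counts (0.000142 in the authors' deposited table). Slc45a3 was 1.72-fold lower (0.00312 in the authors' deposited table), although its highest atorvastatin liver reached the range of the vehicle livers. Slc7a8 and Slc22a28 were 1.97-fold and 2.01-fold lower with overlapping groups (0.0452 and 0.0344 in the authors' deposited table).

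Slc15a3, a peptide and histidine carrier of lysosomes in macrophages, was 1.64-fold lower at 83, 87.6, 43.2 and 58 counts (0.0354 in the authors' deposited table). The 3 Kupffer cell markers listed for these livers (C1qa, Cd5l and Clec4f) summed to 1414 to 2583 in vehicle and 828 to 1569 in atorvastatin livers. The rest of the 10 markers are not listed there, because only genes selected on the authors' own results are. The sum therefore does not show how the markers moved as a set. The part of macrophage RNA in the Slc15a3 difference was not tested. The scaffold gene Slc9a3r1 was 1.47-fold higher at 2706, 2304, 2298 and 3092 counts (0.000497 in the authors' deposited table). Among mitochondrial carriers, the iron importer Slc25a37 (mitoferrin) was 1.41-fold higher, and the ornithine carrier Slc25a15 and the glutamate carrier Slc25a22 were 1.25-fold and 1.19-fold lower, where the authors' deposited table gave adjusted p-values of 5.5e-06, 0.00662 and 0.000461.

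**Figure D3:**
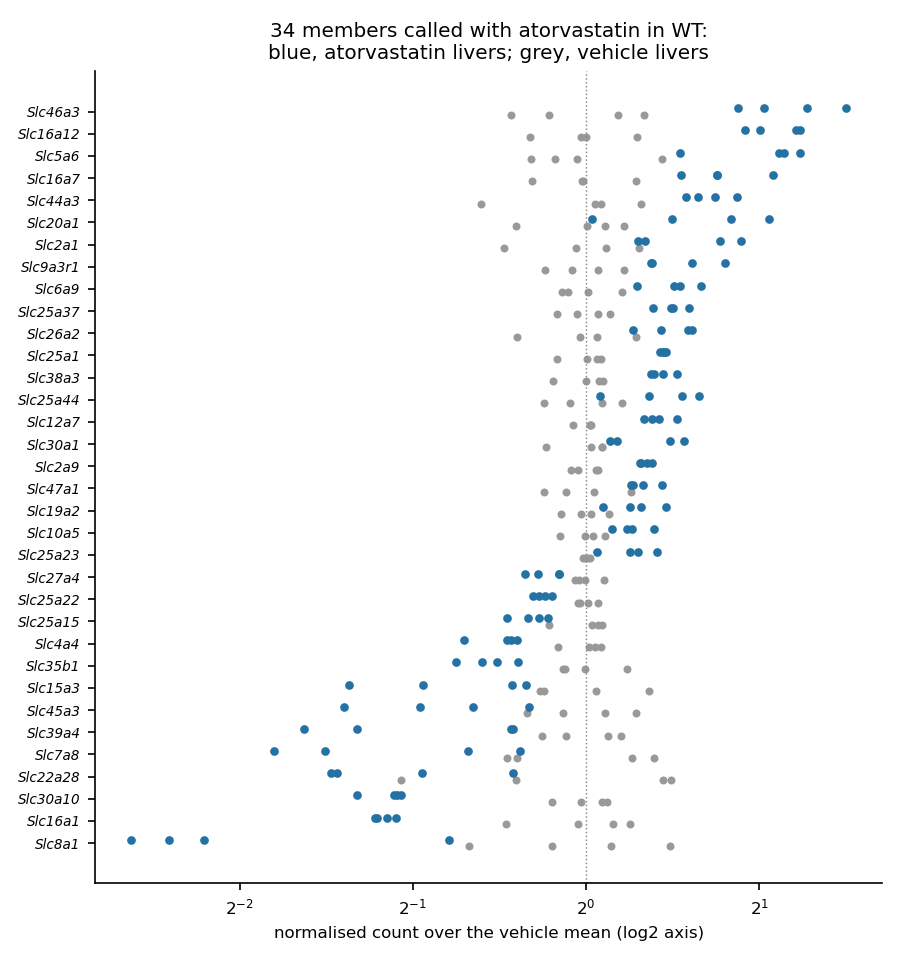
Normalised count over the vehicle mean (x axis, log2 scale) of the 34 members called with atorvastatin in WT, 1 row a gene; blue points are the 4 atorvastatin livers and grey points the 4 vehicle livers. Slc46a3, Slc16a12 and Slc5a6 stand highest at 2.28, 2.14 and 2.05 times the vehicle mean, and the lone high atorvastatin liver of Slc8a1 is visible at the bottom.

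Pravastatin at the same dose as atorvastatin gave no called member in the authors' deposited table, at an adjusted p of 0.05 and also of 0.1. Of the 172 members 0 were called (13 are listed), beside 28 of 14667 tested genes (0.191%). At so low a share, a set of 172 genes without a call is not set apart from the rest. The smallest adjusted p was that of Slc6a9, 0.433 in the authors' deposited table, at 963, 850.2, 735 and 938 counts, which overlapped with the vehicle livers. Of the 13, 11 had an unadjusted p under 0.05 in the authors' deposited table, which selected the genes it lists. Slc5a6 had 268, 233, 142 and 189 counts with pravastatin, beside 363, 341, 334 and 224 with atorvastatin and 123, 208, 136 and 149 with vehicle. The pravastatin mean was 208 ± 54.6 and that of atorvastatin 316 ± 62.1 (SD, n = 4 each), and the pravastatin values straddled the highest vehicle liver. Slc39a4 had 218, 154, 248 and 286 counts with pravastatin and overlapped with vehicle livers. Slc16a1, Slc16a12, Slc30a10 and Slc46a3 are not listed for pravastatin and were not analysed there. The statins' difference was not tested, because they stand in separately normalised tables.

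In PXRKO livers, atorvastatin against vehicle gave no called member: 0 of the 172 (8 are listed), beside 12 of 11445 tested genes (0.105%). Here too, at so low a share, a set without a call is not set apart from the rest. The largest difference of the 8 was that of Slc26a10, at 47.4, 48.6, 68.9 and 62.2 counts with vehicle and 26.7, 42.6, 30.1 and 19.1 with atorvastatin, 1.92-fold lower without overlap (unadjusted p 0.00106, adjusted p 0.367 in the authors' deposited table). Slc35b1 had 469, 415, 460.2 and 430.4 counts with vehicle and 396, 349, 313 and 264 with atorvastatin, 1.34-fold lower without overlap (adjusted p 0.367 in the authors' deposited table). Its values side by side in WT livers were 447 ± 54.8 with vehicle and 303 ± 31.6 with atorvastatin, and in PXRKO livers 444 ± 25.4 and 331 ± 55.6 (SD, n = 4 each). Slc38a2 was listed in the same comparison at 3306 ± 307 and 2802 ± 339, where the authors' deposited table gave 0.97. Slc25a48 had 218, 241, 212 and 245 and 268, 284, 253 and 391, 1.31-fold higher (0.839 in the authors' deposited table). All 8 had an unadjusted p under 0.05 in the authors' deposited table, which selected the genes it lists, and the other members were not analysed in these livers.

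Between genotypes on vehicle, 7 members (4.07%) were called in the authors' deposited table, beside a background of 2.08%. That background too is over all tested genes, without the members' baseMean minimum. All 7 were lower in PXRKO than in WT livers. In 6 of the 7 the groups did not overlap, a share that was not counted over all called genes. At an adjusted p under 0.1 there were 2 more, Slc37a3 and Slc39a13, which were 1.21-fold and 1.36-fold higher in PXRKO livers without overlap (0.0578 and 0.0535 in the authors' deposited table). Slc8a1 was again lowest relative to WT vehicle livers, at 356, 279.8, 274 and 497 counts in PXRKO vehicle livers, 2.81-fold lower (0.000523 in the authors' deposited table). Slc17a8, a vesicular glutamate carrier, had 630.5, 875, 761 and 971 counts in WT and 429, 422, 475 and 369 in PXRKO livers, 1.91-fold lower (1.43e-08 in the authors' deposited table). Slc35e3 had 436, 487, 487 and 521 in WT and 292, 305, 272 and 349 in PXRKO livers, 1.59-fold lower (4.28e-07 in the authors' deposited table).

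The other 4 were smaller or less separated. Slc39a4 was 1.62-fold lower with 1 PXRKO liver inside the WT range (0.0267 in the authors' deposited table). Slc22a30, from the same mouse gene cluster as Slc22a28, was 1.35-fold lower (0.0371 in the authors' deposited table). Slc35a5, of the nucleotide sugar carrier family, was 1.32-fold lower and Slc38a2 1.26-fold lower (0.00778 and 0.02 in the authors' deposited table). This comparison shares its WT vehicle livers with those of PCN and the statins, and the WT vehicle livers had the highest Slc8a1 counts of the 4 groups listed for it.

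Between genotypes on atorvastatin, 38 members (22.1%) were called in the authors' deposited table, beside a background of 9.35% over all tested genes, without the members' baseMean minimum. Of these, 10 were higher and 28 lower in PXRKO livers. In 33 the groups did not overlap, a share that was not counted over all called genes. Monocarboxylate carriers were among the members with the largest differences in either direction. Slc16a1 had 1772, 1409, 1153 and 1197 counts in PXRKO atorvastatin livers against 559.8, 564, 588 and 609 in WT atorvastatin livers, 2.38-fold higher (4.76e-17 in the authors' deposited table). Slc16a12 had 1098, 1522, 1287 and 1034 counts in PXRKO livers, 1.84-fold lower than in WT (6.34e-09 in the authors' deposited table). Slc16a5 had 244, 224, 189 and 288 in PXRKO and 378, 335, 445 and 674 in WT livers, 1.94-fold lower (0.000309 in the authors' deposited table). For all 3 genes the PXRKO and WT livers did not overlap.

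Slc46a3 had the largest fall, to 253, 349, 309.8 and 251 counts in PXRKO livers, 2.29-fold lower (5.82e-11 in the authors' deposited table). Slc5a6 had 150.3, 209.8, 138 and 183, 1.85-fold lower (5.2e-05 in the authors' deposited table), and Slc9a3r1 1552, 1827, 1389.7 and 1647, 1.62-fold lower (1.41e-06 in the authors' deposited table). For all 3 genes these PXRKO values overlapped with those of the WT vehicle livers given above, which come from another experiment and a separately normalised table. The dicarboxylate carrier Slc13a3 and Slc26a10 were 1.81-fold and 1.79-fold lower, the latter with overlap (0.000302 and 0.0362 in the authors' deposited table).

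Higher in PXRKO atorvastatin livers were Slc30a10, at 954, 817, 591 and 442 counts and 1.89-fold the WT mean (0.0002 in the authors' deposited table), and Slc4a4, at 5689, 5421, 4835 and 5363 counts and 1.38-fold (3.13e-05 in the authors' deposited table). Mitochondrial carriers were split, with 4 higher and 6 lower. Slc25a22 was 1.63-fold higher at 3564, 2739, 3485 and 5526 counts, where PXRKO library 4 stood well above the others (0.00139 in the authors' deposited table). Slc25a48 and Slc25a15 were 1.58-fold and 1.42-fold higher, and the mitochondrial phosphate carrier Slc25a3 1.16-fold higher (0.00174, 0.000653 and 0.0188 in the authors' deposited table). Slc25a37 was 1.49-fold lower (1.83e-05 in the authors' deposited table).

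Smaller differences in the same comparison were those of the metal carriers Slc39a13 and Slc11a2, 1.35-fold and 1.26-fold higher, and of Slc35e1, 1.23-fold higher (0.0148, 0.0139 and 0.0319 in the authors' deposited table). Slc35a5 and Slc35e3, which were lower in PXRKO livers on vehicle, were also lower on atorvastatin, 1.45-fold and 1.33-fold (3.12e-05 and 0.0018 in the authors' deposited table). The pairs of groups in these comparisons share no library with each other.

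PCN against vehicle in WT and PXRKO against WT on atorvastatin have no library in common. Of the 12 members called with PCN by edgeR, 7 (58.3%) were among the 38 called between genotypes on atorvastatin in the authors' deposited table, of which they make up 18.4%. All 7 had opposite signs: Slc46a3, Slc5a6, Slc16a12 and Slc9a3r1 were higher with PCN and lower in PXRKO livers, and Slc16a1, Slc30a10 and Slc4a4 were lower with PCN and higher in PXRKO livers. Over all 38, the fitted change with PCN and the genotype difference had opposite signs in 29. Over all 12855 tested genes the same overlap was 187 of 458 called with PCN (40.8%), or 14.5% of the 1291 called between genotypes, with opposite signs in 175 of the 187 (93.6%). Of those 1291 genes, 1040 (80.6%) had opposite signs, beside 76.3% of the 38 members, a share near that of all genes. The count is a description, since these members were chosen with results of these data known.

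**Figure D4:**
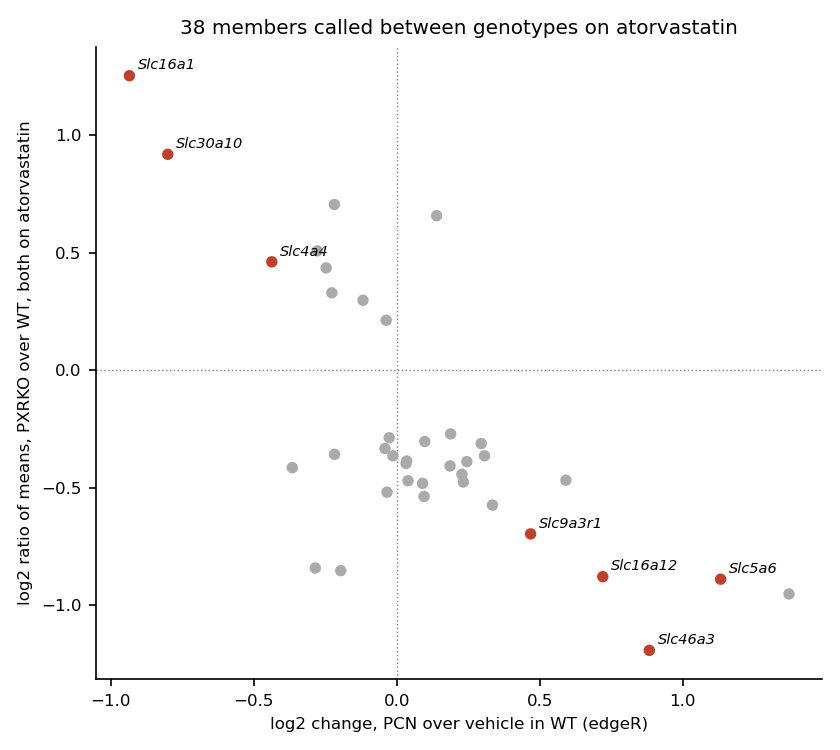
Fitted log2 change with PCN over vehicle in WT livers (x axis) and log2 ratio of means of PXRKO over WT livers on atorvastatin (y axis) for the 38 members called in the latter; red points were also called with PCN. The 7 red points lie at the upper left and lower right, Slc16a1 at the upper left end and Slc46a3 and Slc5a6 at the lower right.

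Called in 3 comparisons of the authors' deposited tables were 10 members (Slc16a1, Slc16a7, Slc16a12, Slc30a10, Slc39a4, Slc46a3, Slc4a4, Slc5a6, Slc8a1 and Slc9a3r1), 59 members were called in at least 1 and 113 in none. The same counts over all genes were not made. The comparisons reuse the WT vehicle and WT atorvastatin livers, so several calls of 1 member are not independent of each other. The order of group means differed between the 10 members. For Slc5a6 it was vehicle 154 ± 37.6, PXRKO atorvastatin 170.3 ± 32.5, pravastatin 208 ± 54.6, atorvastatin 316 ± 62.1 and PCN 346 ± 53.6 (SD, n = 4 each). Every pair of neighbours in this order lay within their SDs of each other, pravastatin and atorvastatin included. For Slc30a10 it was WT atorvastatin 371 ± 29.1, PCN 471 ± 113, PXRKO atorvastatin 701 ± 228 and vehicle 819.7 ± 79.4, where the PXRKO livers spread most. Here too every pair of neighbours lay within their SDs of each other. For Slc8a1 it was PCN 275 ± 54.7, WT atorvastatin 282 ± 193, PXRKO vehicle 351 ± 104 and vehicle 986 ± 325, the lower 3 within their SDs.

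**Figure D5:**
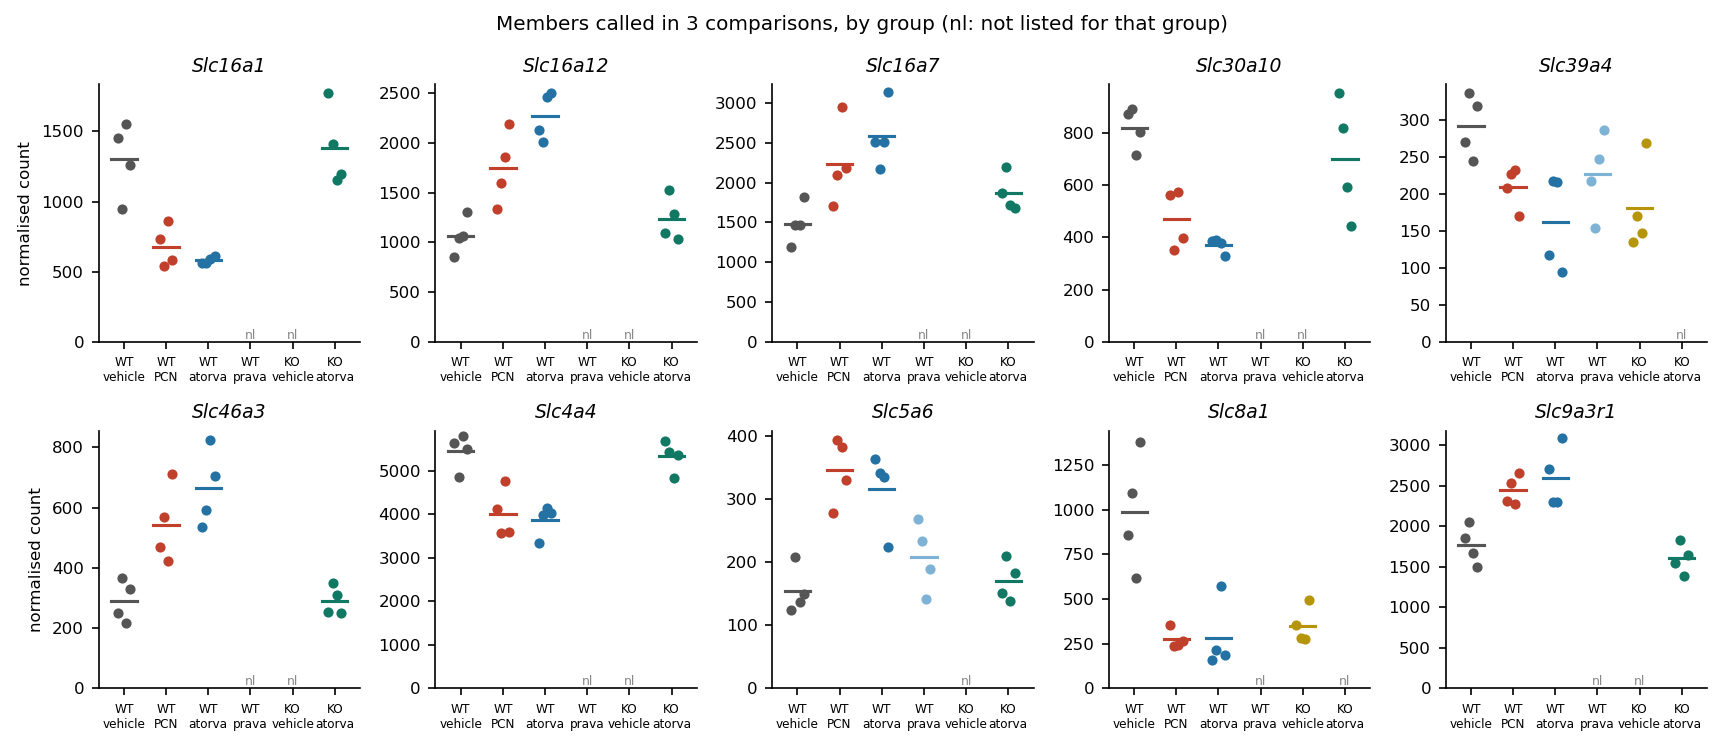
Normalised counts (y axis, from 0) of the 10 members called in 3 comparisons, by group, 1 point a liver with the group mean as a bar; nl marks a group for which the gene is not listed. Slc46a3, Slc5a6 and Slc16a12 are high in WT livers given PCN or atorvastatin and low in vehicle and PXRKO atorvastatin livers, and Slc16a1, Slc30a10 and Slc4a4 show the reverse.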

How the data were processed

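Liver total RNA of 24 mice (4 in each of 6 groups) was read from 15 deposited tables, each of which pairs 2 groups. The submitters' processing notes name HTSeq, DESeq2 and build GRCm38, with no version or role. The kit was stranded, per the labels' protocols. Not given in the sources used here: aligner, annotation release, use of strand in counting. Each table carries deposited counts, whole numbers that were not normalised. The deposited mean signal (baseMean) is a mean of counts over the authors' size factors. The authors' log2 fold changes, p-values and adjusted p-values are used as deposited.

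The vehicle and PCN table holds nearly all genes, while each of the other tables lists genes selected on its own comparison. All 120 count columns were mapped to groups (0 unused), most of them by group only, so library numbers follow column order. Identifiers were out of register with symbols (0.0104% matched), and symbol with position served as the key, and starts were raised by 1. The 441 lines without a symbol (4.37% to 5.88% of counts) were left out. Size factors were recovered from baseMean and counts (error up to 0.0305% in simulated tables) and set on 1 scale over shared groups, whose ratios varied by up to 0.411% between tables. A level compared over groups thus spans tables that were normalised separately.

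PCN against vehicle was tested with edgeR 4.0.16 (TMM, filterByExpr, quasi-likelihood F test, Benjamini-Hochberg over all genes, threshold 0.05), with DESeq2 1.42.0, other filters and size factors, and fits leaving out each library as alternatives. In a simulated PCN comparison of 12855 genes, edgeR recovered 82% of genes changed 1 log2 unit and 97% of those changed 2. Smaller changes were not simulated, so these shares do not tell how many changes of the size seen in most members were missed. Folds are ratios of group means. Lengths are exon unions of GENCODE M21 (GRCm38), and promoters are from RefSeq. Other tools were R 4.3.3, Python 3.11.15, pandas 2.3.3 and matplotlib 3.10.9. Each label title carries its own animal number, so replicates are separate animals. No library was a copy of another within the vehicle and PCN groups (chi-square per degree of freedom at least 7.25).

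Members, role groups (by family number) and lists were chosen with earlier results of these data known. Genes named are all members past the PCN threshold, up to 10 largest rises and falls called in each other comparison, the 2 largest changes per role group, members at the edge of the baseMean minimum, members called in 3 comparisons, and called carriers without an Slc number; others were chosen after their values were seen (Slc11a1, Slc2a9, Slc26a2, Slc35e2, Slc37a3, Slc38a3 and pravastatin and PXRKO values among them). Some results, including one that the rule would name, are not reported here.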

Additional observations from a re-analysis of the deposited data

Results flagged for a closer look

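Among 161 groups of 4 libraries of the named members, 3 held a library far from the others (a gap past Dixon's 95% critical value for 4), where chance flags about 1 in 20 groups. The highest PCN library of Slc38a2 had 3740.0 normalised counts, beside 2985 to 3090.0 in the other 3. The lowest PXRKO atorvastatin library of the same gene had 2294 counts, beside 2948 to 2996. The highest WT atorvastatin library of Slc8a1 had 571 counts, beside 159.6 to 214 in the others. Of 6 named members listed for vehicle and atorvastatin in both genotypes, none had all WT livers moving one way and all PXRKO livers the other; the difference was not tested.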

How the results depend on the processing

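The 12 members called with PCN became 19 with DESeq2 and 19 at the authors' deposited adjusted p, and ranged from 5 to 15 over fits that left out 1 library; all genes called ranged from 222 to 487 in those fits. Counts with RLE size factors, without a filter and with a mean of at least 50 were 12, 15 and 12. The cause of the loss without vehicle libraries 1 and 3 and PCN libraries 2 and 4 was not tested, beyond the fewer samples. Of the recomputed log2 changes of named members, 427 kept their direction and side of the threshold, 32 lost and 14 gained a call, and none of these reversed. Medians of role groups moved by more than the spread between libraries in 4 of 99 recomputations. Counts in the other comparisons stayed within 1.5 times under the adjusted p of 0.1 (45 members with atorvastatin in WT, 9 between genotypes on vehicle) or with no overlap required, and no table allowed the former for genotypes on atorvastatin. No paired analysis was possible because the columns carry no replicate number shared between groups. The other comparisons rest on lists selected by the authors, so members that are not listed say nothing of absence of change. Counting without strand would mix antisense reads into a gene, and this could not be told apart here.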
